A study of Mus musculus with 22 samples.

Results

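DNA methylation was compared along 8 genes, Pnma1, Rbmxl2, Gm13205, Mab21l1, Shank2, Shroom1, Dyrk4 and Dlc1, which were chosen by their methylation, much higher in mammary tissue of MMTV-PyMT mice than in normal FVB glands at every stage of tumor progression. They are 8 of 18677 genes with at least 3 CpG positions that were covered by at least 10 reads in all 22 samples. A gene region was the body of its curated RefSeq transcripts plus 2 kb on each side of every transcription start site (TSS), and these regions held 716 such positions, of 1140639 in the whole series. The difference between PyMT and FVB at each stage chose the genes, so these differences are described below without a test. Averaged over a whole region, the smallest stage difference ran from 7.98 points in Dlc1 (rank 213 of all genes) to 40.6 in Mab21l1 (rank 1). That of Shank2 was 9.31 points (rank 158). Tests were run on the change with stage within a genotype, on the sequence outside the regions and on relatives of the genes. The slope within PyMT is another contrast than the one that chose the genes, but the same PyMT values entered both. The change of the difference with week was also fitted, and it uses the stage differences that chose the genes.

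The PyMT mice were F1 females from male MMTV-PyMT mice and homozygous FVB females, heterozygous for the transgene, and age-matched homozygous FVB females were the controls. The promoter of the mouse mammary tumor virus drives the transgene, the oncoprotein polyoma middle T, in mammary epithelial cells, and bulk tumors and bulk glands were sampled. Hyperplasia, the week 6 stage, had 2 PyMT samples. Adenoma/mammary intraepithelial neoplasia (MIN) at week 8 and early carcinoma at week 10 had 3 each. Late carcinoma with lung metastasis, taken at week 12, had 2, and at each of these ages 3 FVB samples were taken. The stage of a sample is the one its label gives for that age. In bulk tissue, a larger share of cells with a methylated gene and more methylation in each cell cannot be told apart.

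CpG methylation is the addition of a methyl group to the cytosine of a CG dinucleotide, copied to daughter strands when cells divide. CpG-rich sequence around a TSS is mostly unmethylated in normal cells, while gene bodies are often methylated, and in tumors some CpG-rich starts gain methylation, most often at genes that are already silent in the tissue. Pnma1 encodes a paraneoplastic Ma antigen, a protein derived from a retrotransposon Gag and known from neurons. Rbmxl2 is an intronless copy of the splicing factor gene Rbmx and is expressed in male germ cells. Mab21l1 acts in embryonic development, including that of the eye. Shank2 is a scaffold protein of excitatory synapses, Shroom1 belongs to a family of actin-binding proteins that shape epithelial cells, Dyrk4 is a protein kinase of the DYRK family, and Dlc1 is known as a tumor suppressor. Gm13205 is annotated as a noncoding RNA.

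The sequences below are stretches in which positions were higher in PyMT at every stage, read from GRCm38.p6 (mm10) in the direction of the gene, with 5 bases added at each end where the stretch is shown whole. Capitals mark the CpGs with such a position on either strand. A CpG in lowercase was either not covered in all samples or not higher at every stage. The sequences show how differently CpGs were packed in the gained sequence of these genes.
Rbmxl2, 300 bases of the coding exon, chr7:107209948-107210247, plus strand: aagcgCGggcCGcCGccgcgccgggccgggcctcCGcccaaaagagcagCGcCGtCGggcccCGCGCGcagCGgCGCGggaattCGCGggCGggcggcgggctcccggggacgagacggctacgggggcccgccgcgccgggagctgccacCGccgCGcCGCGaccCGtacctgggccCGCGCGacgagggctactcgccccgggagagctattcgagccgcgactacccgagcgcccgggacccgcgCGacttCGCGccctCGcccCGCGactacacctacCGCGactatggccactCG
Gm13205, just upstream of the TSS, chr4:148952345-148952423, minus strand: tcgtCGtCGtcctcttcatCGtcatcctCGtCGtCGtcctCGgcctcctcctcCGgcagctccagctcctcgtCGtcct
Gm13205, first exon, chr4:148952004-148952226, minus strand: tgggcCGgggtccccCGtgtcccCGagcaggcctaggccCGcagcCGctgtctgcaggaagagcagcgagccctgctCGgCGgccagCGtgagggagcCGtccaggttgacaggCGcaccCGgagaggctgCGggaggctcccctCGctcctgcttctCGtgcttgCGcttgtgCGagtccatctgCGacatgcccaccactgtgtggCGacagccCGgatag
Mab21l1, coding exon, chr3:55783519-55783656, plus strand: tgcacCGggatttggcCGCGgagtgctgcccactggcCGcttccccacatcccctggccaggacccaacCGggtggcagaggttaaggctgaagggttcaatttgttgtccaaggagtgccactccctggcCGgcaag
Shroom1, coding exon far from the TSS, chr11:53463710-53463914, plus strand: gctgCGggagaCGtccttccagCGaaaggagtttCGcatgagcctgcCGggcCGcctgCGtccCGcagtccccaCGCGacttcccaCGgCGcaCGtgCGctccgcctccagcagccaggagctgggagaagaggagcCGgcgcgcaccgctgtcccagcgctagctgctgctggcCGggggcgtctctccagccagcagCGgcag
Dyrk4, intron near the start of the gene, chr6:126921712-126921749, minus strand: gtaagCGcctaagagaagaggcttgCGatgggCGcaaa
Dlc1, intron, chr8:36639907-36639985, minus strand: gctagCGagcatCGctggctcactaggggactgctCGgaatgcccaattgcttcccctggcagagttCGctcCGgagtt

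The Rbmxl2 sequence held 60 CpGs in 300 bases, of which 33 carried a position higher at every stage, and the Shroom1 sequence held 23 in 205 bases, of which 17 did. All 18 covered positions of that Shroom1 stretch were higher at every stage, so its unmarked CpGs were not covered in all samples. The Mab21l1 sequence held 6 CpGs in 138 bases and the Dlc1 intron 5 in 79 bases, and all of these were marked. Counted in windows of 200 bases, positions higher at every stage had a median of 38 CpGs in Rbmxl2, 23 in Shroom1, 19 in Gm13205, 18.5 in Pnma1 and 12 in Shank2, but only 9 in Mab21l1, 8.5 in Dyrk4 and 7 in Dlc1. Over the whole genome the median was 16 for all covered positions and 7 for the 11973 positions higher at every stage. The gained sequence of Mab21l1, Dyrk4 and Dlc1 was therefore near the genome-wide median of gained positions, and that of the other 5 genes was denser.

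A position was called a hyper-DMC (differentially methylated cytosine, higher in PyMT) when a logistic test of its reads gave a q-value under 0.01 and the pooled difference was at least 10 points of percent methylation. Of the 716 positions, 303 were hyper-DMCs in hyperplasia, 345 in adenoma/MIN, 384 in early carcinoma and 395 in late carcinoma, while the shares over all positions tested were 2.52%, 3.13%, 4.24% and 4.29%. At all 4 stages 256 positions were hyper-DMCs, or 35.8%, beside 1.05% of all positions. These counts follow from how the genes were chosen. All 10 PyMT samples lay above all 12 FVB samples at 204 of the 716 positions, beside 0.654% of all positions, which follows from the same choice. Positions lower in PyMT numbered 20, 26, 21 and 17 by stage, beside 5.88%, 6.93%, 8.22% and 8.35% of all positions, and 15 or 16 of them were in Gm13205. Where both strands of a CpG were covered, 93 of 115 CpGs had the same call on both strands. Agreement was lowest in Rbmxl2, where 16 of 30 CpGs had the same call and 4 were higher on both strands.

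The 256 positions were not spread evenly along the genes. Joined where they lay at most 100 bp apart, 244 of them fell into 22 stretches of at least 3 positions. Covered positions were themselves uneven along the genes, and the stretches that all of them would form were not counted. Of the positions in 5′ untranslated regions 47.6% were higher at every stage, of those in coding exons 31.1%, of those in introns 26.1% and of those upstream of a TSS 39.0%, while 21 of 28 positions in the noncoding exons of Gm13205 and 0 of 5 in a 3′ untranslated region were. These shares differed widely between genes. In 5′ untranslated regions they were 52 of 55 in Pnma1, 1 of 1 in Mab21l1, 8 of 27 in Shank2, 7 of 44 in Dlc1 and 0 of 16 in Shroom1. Of the 32 upstream positions higher at every stage 24 were in Gm13205, and of the 95 in coding exons 46 were in Rbmxl2.

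**Figure D1:**
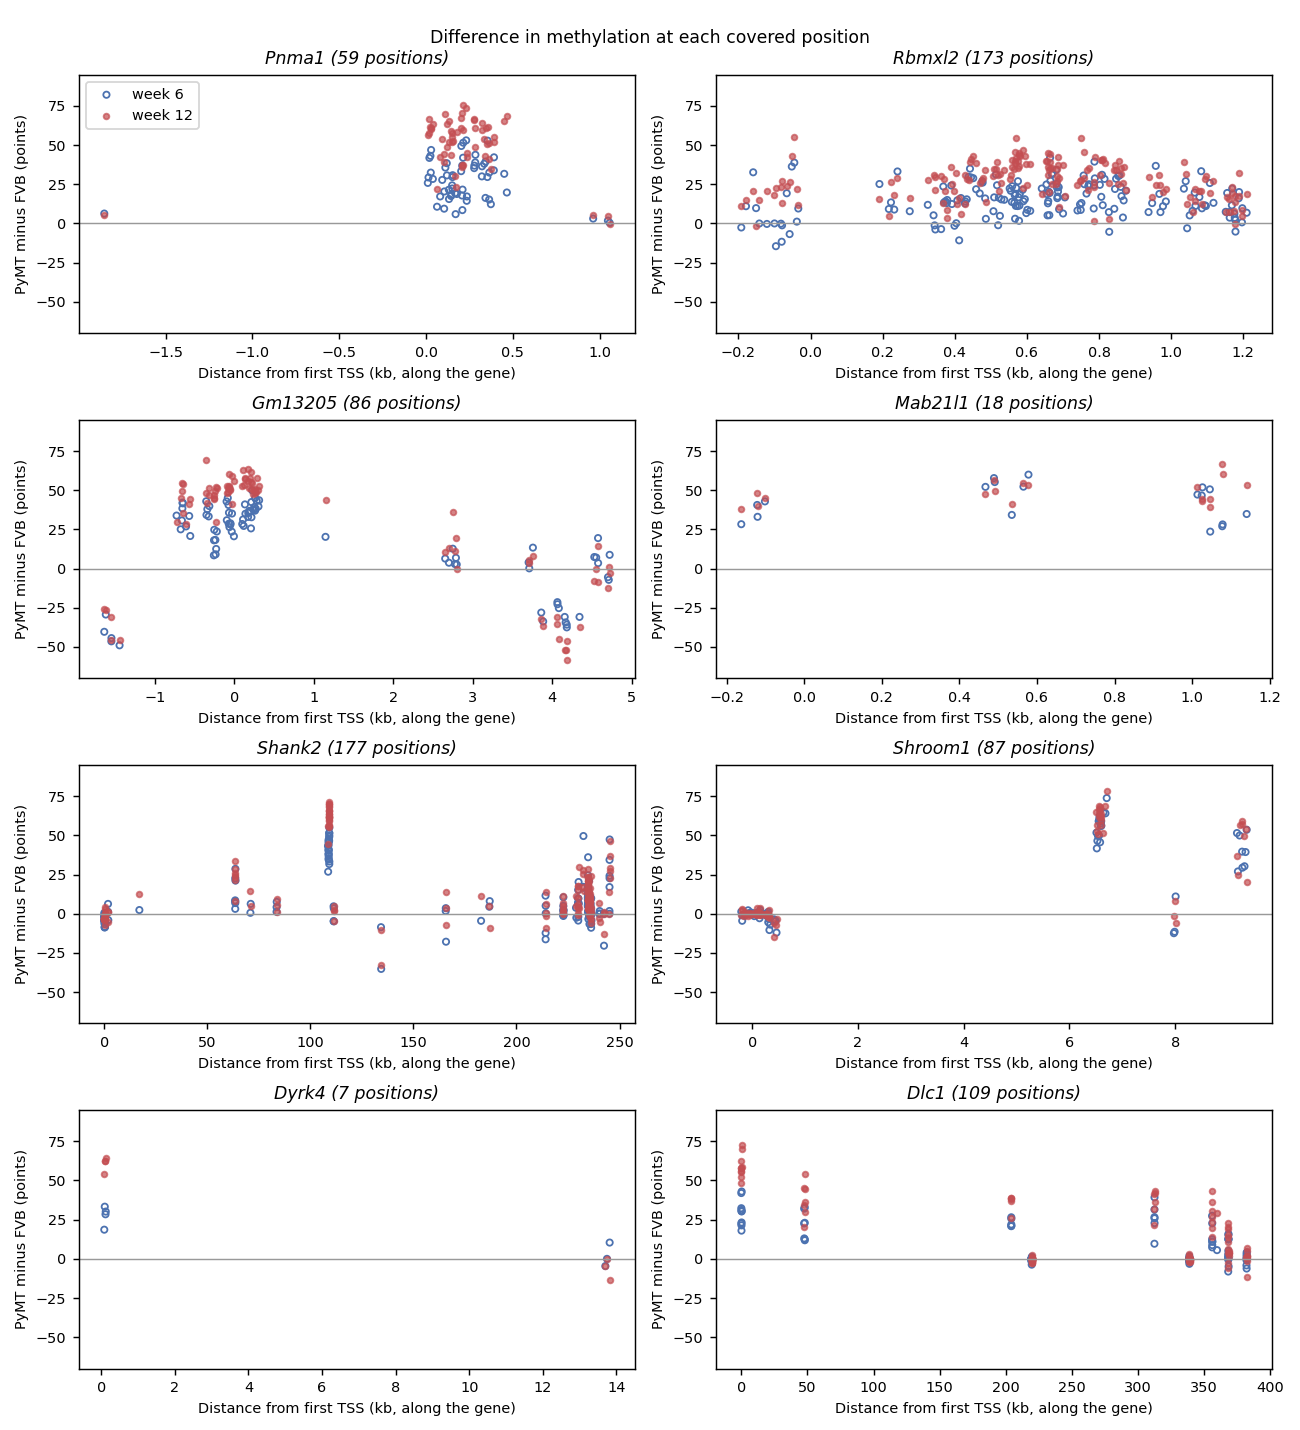
Difference in methylation between PyMT and FVB (points of percent methylation) at each position covered in all samples, against the distance from the first TSS in kb along the gene, at week 6 (open circles) and week 12 (filled circles). The gain of Pnma1 and Dyrk4 sat next to the TSS, that of Shroom1 lay from 6510 to 9350 bp downstream of it, and that of Shank2 was largest from 108851 to 109233 bp after its first TSS.

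Pnma1 (chr12:84146131-84148489, minus strand) had 1 continuous block of gain. It ran from 10 to 465 bp after the TSS, within the 5′ untranslated region, and 52 of its 55 covered positions were higher at every stage. In PyMT the mean methylation of this block was 36.6% and 34.1% in hyperplasia, 37.9%, 39.4% and 52.6% in adenoma/MIN, 62.4%, 51.8% and 58.9% in early carcinoma, and 62.1% and 56.4% in late carcinoma. In the 12 FVB samples it lay between 4.45% and 9.58% with a median of 5.66%, so the lowest PyMT sample was far above the highest control. The difference was 28.9, 36.3, 52.3 and 54.0 points by stage. The 3 positions in the coding exon were already methylated in FVB, at a mean of 93.3% at week 12, and differed by 1.73 points at week 6 and 3.33 at week 12.

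In Rbmxl2 (chr7:107209445-107210916, plus strand) the gain was lower and wider than in Pnma1, and positive at every stage at 136 of 173 positions. Its longest stretch ran from 390 to 860 bp after the TSS, in the coding exon, and 45 of its 100 covered positions were higher at every stage. The number of hyper-DMCs among its 173 positions was 78, 93, 120 and 129 by stage, and 153 positions had a higher mean in PyMT at week 12 than at week 6. The mean of the region was 42.5% and 42.3% in hyperplasia, 39.7%, 43.0% and 48.6% in adenoma/MIN, 52.3%, 54.8% and 43.1% in early carcinoma, and 59.7% and 53.2% in late carcinoma. FVB samples lay between 26.3% and 30.3% with a median of 28.4%, and no PyMT sample reached down to them. The 126 positions that were not higher at every stage still had a mean difference of 11.9 points at week 6 and 24.0 at week 12.

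Mab21l1 (chr3:55782510-55785287, plus strand) was higher at every stage at all 18 of its covered positions, which lay from -163 to 1141 bp relative to the TSS. It had the largest smallest-stage difference of all 18677 genes, 40.6 points at week 8. Its mean was 73.8% and 67.2% in hyperplasia, 63.6%, 67.4% and 74.7% in adenoma/MIN, 77.1%, 75.04% and 76.6% in early carcinoma, and 76.5% and 68.3% in late carcinoma. Controls varied more here than at the other genes, from 17.5% to 40.9% with a median of 21.8%, but did not overlap the PyMT samples. The difference was 42.6, 40.6, 56.2 and 48.7 points by stage, so most of it was present in hyperplasia. The gene lies inside Nbea (chr3:55625195-56183748), which is transcribed from the other strand.

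Gm13205 (chr4:148947489-148952322, minus strand) gained methylation around its TSS and was lower in PyMT elsewhere in the same gene. The 4 gained stretches lay from -725 to 313 bp relative to the TSS and together held all 45 positions higher at every stage. The stretch in the first exon had 21 of 21 positions higher at every stage. Its mean was 82.2% and 69.2% in hyperplasia, 77.6%, 74.7% and 83.9% in adenoma/MIN, 85.5%, 87.5% and 80.3% in early carcinoma, and 88.5% and 84.8% in late carcinoma. FVB samples had 30.7% to 44.3%, median 35.1%, well below every PyMT sample. In contrast, the 20 positions in the intron were 11.4 points lower in PyMT at week 6 and 13.7 points lower at week 12. The difference was thus of both signs within one short gene. All 86 positions also lie inside Casz1 (chr4:148804366-148954893), on the other strand, and the 11 positions of the stretch just upstream of the TSS and the 21 of the first exon fall in Casz1 coding sequence, so the methylation cannot be assigned to either gene.

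Shank2 (chr7:144175460-144424494, plus strand) has an outer TSS and an internal one at position 144284394, and the large gain was at the internal one. All 22 positions within 2 kb of the internal TSS were higher at every stage. Their mean was 62.9% and 53.7% in hyperplasia, 67.5%, 65.6% and 82.2% in adenoma/MIN, 77.8%, 73.3% and 74.2% in early carcinoma, and 75.2% and 70.4% in late carcinoma, against 7.83% to 19.2% in FVB. Of the 21 positions within 2 kb of the outer TSS 0 were higher at every stage, and PyMT samples there had 8.95% to 10.2% and FVB samples 9.55% to 14.2%. Smaller gains lay further along the gene, in an intron between the starts and in an intron and coding exons near the 3′ end, with mean differences of 11.7 to 29.1 points at week 6.

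Dlc1 (chr8:36567739-36952442, minus strand) has 3 TSSs, and the gain was at the outermost of them, where the longest transcript begins. All 10 positions within 2 kb of that TSS were higher at every stage. Their mean was 37.0% and 41.2% in hyperplasia, 45.8%, 53.4% and 55.2% in adenoma/MIN, 61.4%, 61.5% and 58.2% in early carcinoma, and 75.8% and 63.2% in late carcinoma. In FVB the range was 4.54% to 14.2% with a median of 9.72%. Around the middle TSS, at position 36733054, all 27 positions together stayed at 0% to 0.425% in PyMT and 0.139% to 0.958% in FVB, and around the innermost one, at 36613943, the 24 positions had 0.0608% to 0.617% and 0.0969% to 0.736%. These inner starts were thus almost unmethylated in both genotypes. Intronic stretches of 5 positions each, beginning 204134 and 312462 bp after the first TSS, were at 43.2% to 67.4% and 31.6% to 51.4% in FVB and differed by 23.2 and 29.2 points at week 6.

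**Figure D2:**
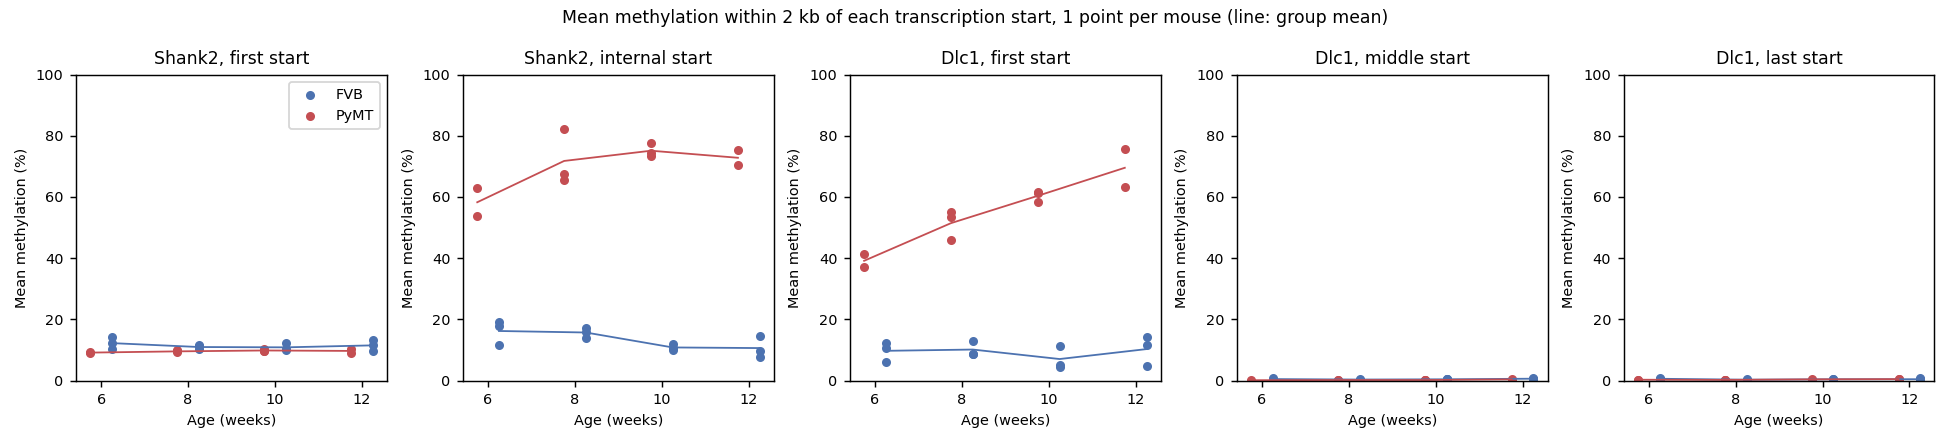
Mean methylation (%) of the positions within 2 kb of each TSS of Shank2 and Dlc1 against age in weeks, 1 point per mouse, with lines through the group means. The PyMT samples lie above all FVB samples at the internal TSS of Shank2 and at the first TSS of Dlc1, and near or below them at the other starts.

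Shroom1 (chr11:53457205-53467766, plus strand) gained methylation inside the gene and not at its start. Around the TSS 0 of 58 positions were higher at every stage, and their mean at week 12 was 1.27% in PyMT and 1.78% in FVB. A stretch in a coding exon, 6510 to 6704 bp after the TSS, had 18 of 18 positions higher at every stage. Its mean was 74.0% and 68.4% in hyperplasia, 64.7%, 63.6% and 78.5% in adenoma/MIN, 78.6%, 68.7% and 70.1% in early carcinoma, and 81.9% and 66.7% in late carcinoma. FVB samples had 8.97% to 23.3% there, median 12.4%, so the groups were far apart. A second stretch, 9167 to 9350 bp after the TSS, differed by 40.1, 42.9, 50.1 and 44.8 points by stage.

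Dyrk4 (chr6:126876199-126921839, minus strand) had only 7 covered positions, and 4 of them, 82 to 122 bp after the TSS, made up its gain. Their mean was 47.3% and 49.6% in hyperplasia, 65.5%, 57.0% and 70.7% in adenoma/MIN, 72.6%, 70.0% and 75.6% in early carcinoma, and 83.1% and 67.5% in late carcinoma, against 7.93% to 29.8% in FVB. The difference was 27.6 points at week 6 and 61.0 at week 12. The other 3 positions lay in an intron and had a mean difference of -5.99 points at week 12. With 7 positions in a region of 47641 bp, the extent of the gain along the gene was hardly measured.

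**Figure D3:**
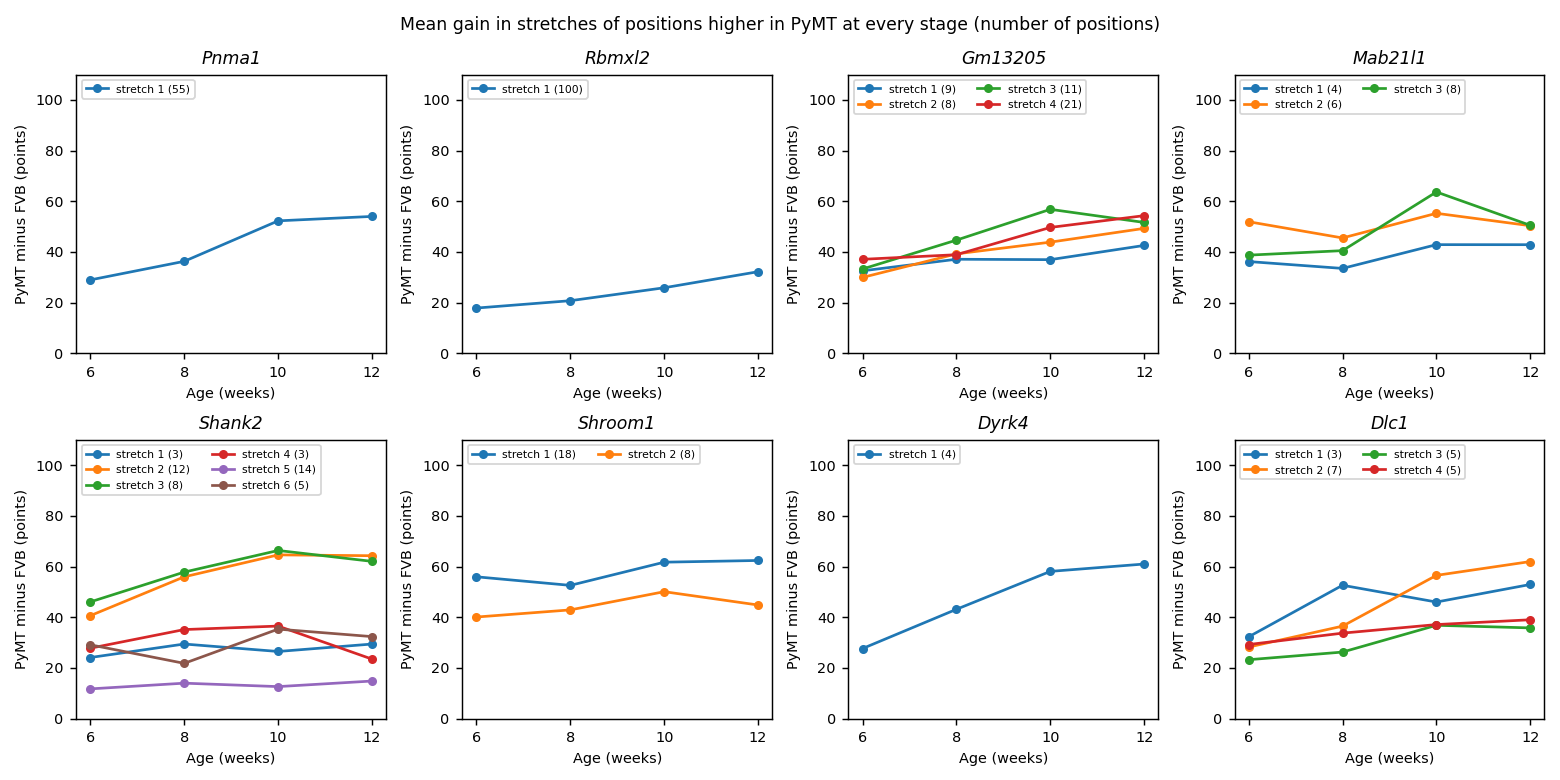
Mean difference in methylation between PyMT and FVB (points) against age in weeks in the 22 stretches of positions higher at every stage, with the number of covered positions of each stretch in the legend. The curves of Pnma1, Dyrk4 and the first 2 Dlc1 stretches rise from about 30 points at week 6 to over 50 at week 12, while those of Shroom1 and Mab21l1 start at 36 points or more.

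The growth with stage was tested on the mean of each gene region with limma, as a slope on week within the 10 PyMT samples, with Benjamini-Hochberg adjustment over all 18677 genes. Pnma1 rose by 4.17 ± 0.80 points per week (SE, limma adjusted p = 0.0287) and Dlc1 by 0.83 ± 0.14 (limma adjusted p = 0.0168). These 2 of 8 genes compare with 2.28% of all genes that rose and 0.455% that fell. The PyMT values behind these slopes also entered the choice of the genes, so this count is not independent of that choice. An exact permutation test over the 25200 arrangements of the week labels gave two-sided p = 0.0023 for Pnma1 and p = 7.94e-05 for Dlc1, the smallest that this design allows, and adjusted over all genes p = 0.0789 and p = 0.0270. The mean of Pnma1 was 39.4% ± 1.76 at week 6 (SD, n = 2), 46.7% ± 7.68 at week 8 (n = 3), 60.3% ± 5.14 at week 10 (n = 3) and 61.8% ± 3.57 at week 12 (n = 2). The means of Dlc1 were 39.4% ± 0.38, 40.9% ± 1.31, 42.9% ± 0.40 and 44.2% ± 0.84, and each step was 1.54, 1.96 and 1.32 points, while the largest step of Pnma1, 13.5 points, was that from adenoma/MIN to early carcinoma. A region mean also holds positions without gain, so the size of its slope depends on their share. From week 6 to 12, PyMT rose by 30.4 points around the first TSS of Dlc1, beside 4.81 over its region. The rise was 23.9 points in the block of Pnma1. Around the internal TSS of Shank2 it was 14.5 points, beside 3.54 over its region. These local rises were not tested.

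The slopes of the other 6 genes were upward but did not pass the threshold. They were 2.46 ± 0.63 points per week for Rbmxl2 (SE, limma adjusted p = 0.0773), 1.69 ± 0.68 for Dyrk4 (limma adjusted p = 0.260), 1.47 ± 0.45 for Gm13205 (limma adjusted p = 0.134), 0.82 ± 0.69 for Mab21l1 (limma adjusted p = 0.651), 0.60 ± 0.21 for Shank2 (limma adjusted p = 0.191) and 0.32 ± 0.27 for Shroom1 (limma adjusted p = 0.641). Restricted to the 2 kb around the TSS, the slope of Dyrk4 was 4.43 ± 0.94 points per week (limma adjusted p = 0.0355 over the genes with promoter positions), beside 2.76% of all promoters that rose and 0.0975% that fell. That window held only 4 covered positions of Dyrk4, and all 4 were positions higher at every stage. The promoter slope was 1 of 19 alternatives to the slope of the whole Dyrk4 region, over which the limma adjusted p ranged from 0.0355 to 0.563. The median slope was 1.15 points per week over the 8 genes and 0.01 over all genes. Without PyMT week 6 replicate 2 or PyMT week 12 replicate 1, neither gene was called (limma adjusted p from 0.0769 to 0.117), and without PyMT week 6 replicate 1 Pnma1 was not (limma adjusted p = 0.0817). The call of Dlc1 was also lost with pooled reads (limma adjusted p = 0.923) and on a log2 read ratio scale (limma adjusted p = 0.373), and both calls when weeks 10 and 12 were set against weeks 6 and 8 (limma adjusted p = 0.115 and 0.158). With replicate number as a block in the model, both calls were lost as well (limma adjusted p = 0.104 for Pnma1 and 0.0729 for Dlc1).

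In the 12 FVB samples no gene of the 18677 had a slope past the threshold with limma, and 1545 genes had an unadjusted p under 0.05. Of the 8 genes, 1 did, Dyrk4 at -1.17 ± 0.48 points per week. FVB slopes were below 0 for 7 of the 8 genes and between -1.17 and 0.28 points per week. The difference of the slopes between the genotypes, a genotype by week interaction over all 22 samples, was 4.38 ± 0.75 points per week for Pnma1 (limma adjusted p = 0.0017), 2.18 ± 0.60 for Rbmxl2 (limma adjusted p = 0.0482) and 1.09 ± 0.27 for Dlc1 (limma adjusted p = 0.0301). These 3 of 8 compare with 2.26% of all genes with a higher and 1.06% with a lower slope in PyMT. The interaction uses the same stage differences that chose the genes, so its p-values and this count are a description, not independent support. Gm13205 was just outside the threshold (1.70 ± 0.47, limma adjusted p = 0.0534). In promoters alone the difference of slopes passed it for Gm13205 (2.76 ± 0.73, limma adjusted p = 0.0359) and Dyrk4 (5.74 ± 1.23, limma adjusted p = 0.00798). The promoter of Dyrk4 held only its 4 positions higher at every stage. The call of Pnma1 held in all 29 alternatives, that of Dlc1 in 20 and that of Rbmxl2 in 5. The call of Rbmxl2 was lost without any 1 of 19 samples (limma adjusted p from 0.0524 to 0.176) and in 5 other settings (0.0504 to 0.188), that of Dlc1 on the log2 read ratio scale and with pooled reads (limma adjusted p = 0.440 and 0.914), and that of Dlc1 without PyMT week 6 replicate 1 or 2, PyMT week 12 replicate 1, FVB week 6 replicate 1 or 2, or FVB week 12 replicate 1 (limma adjusted p from 0.0526 to 0.0856). With replicate number as a block the call of Dlc1 was lost too (limma adjusted p = 0.0567).

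**Figure D4:**
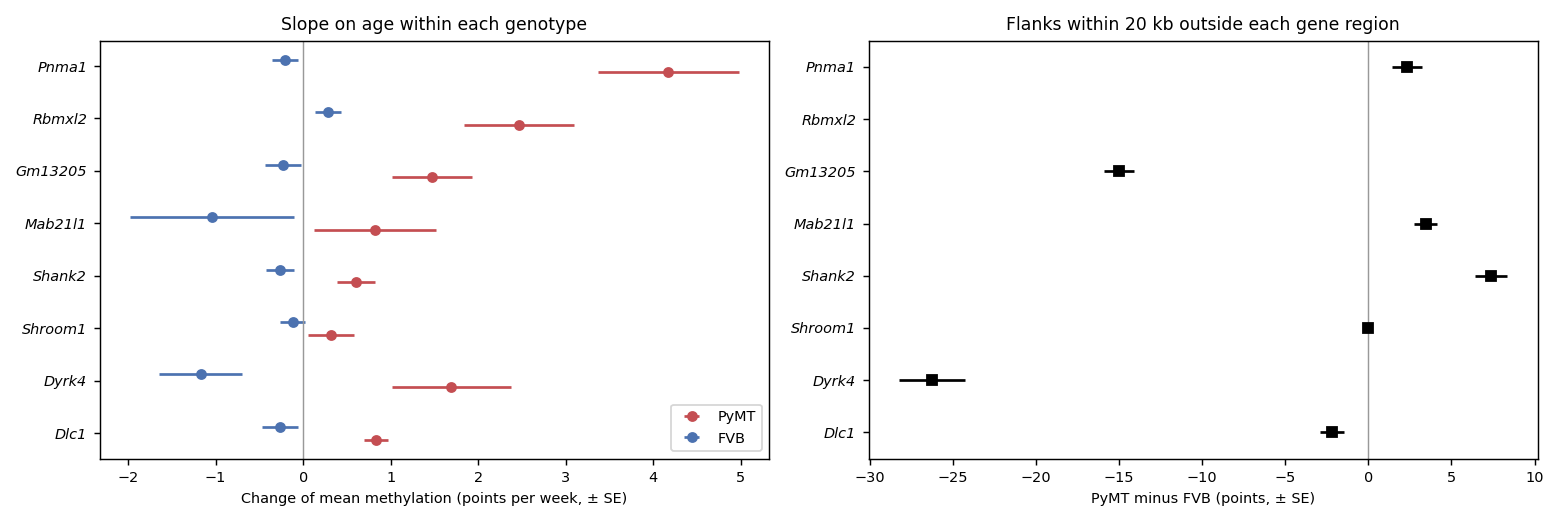
Left, slope of mean methylation on age in the PyMT and the FVB samples (points per week, ± SE) for the 8 genes; right, difference between PyMT and FVB in positions within 20 kb outside each gene region (points, ± SE), with no value for Rbmxl2. The PyMT slopes are all above 0 with Pnma1 highest at 4.17, and the flanks of Dyrk4 and Gm13205 lie at -26.3 and -15.03 points.

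**Figure D5:**
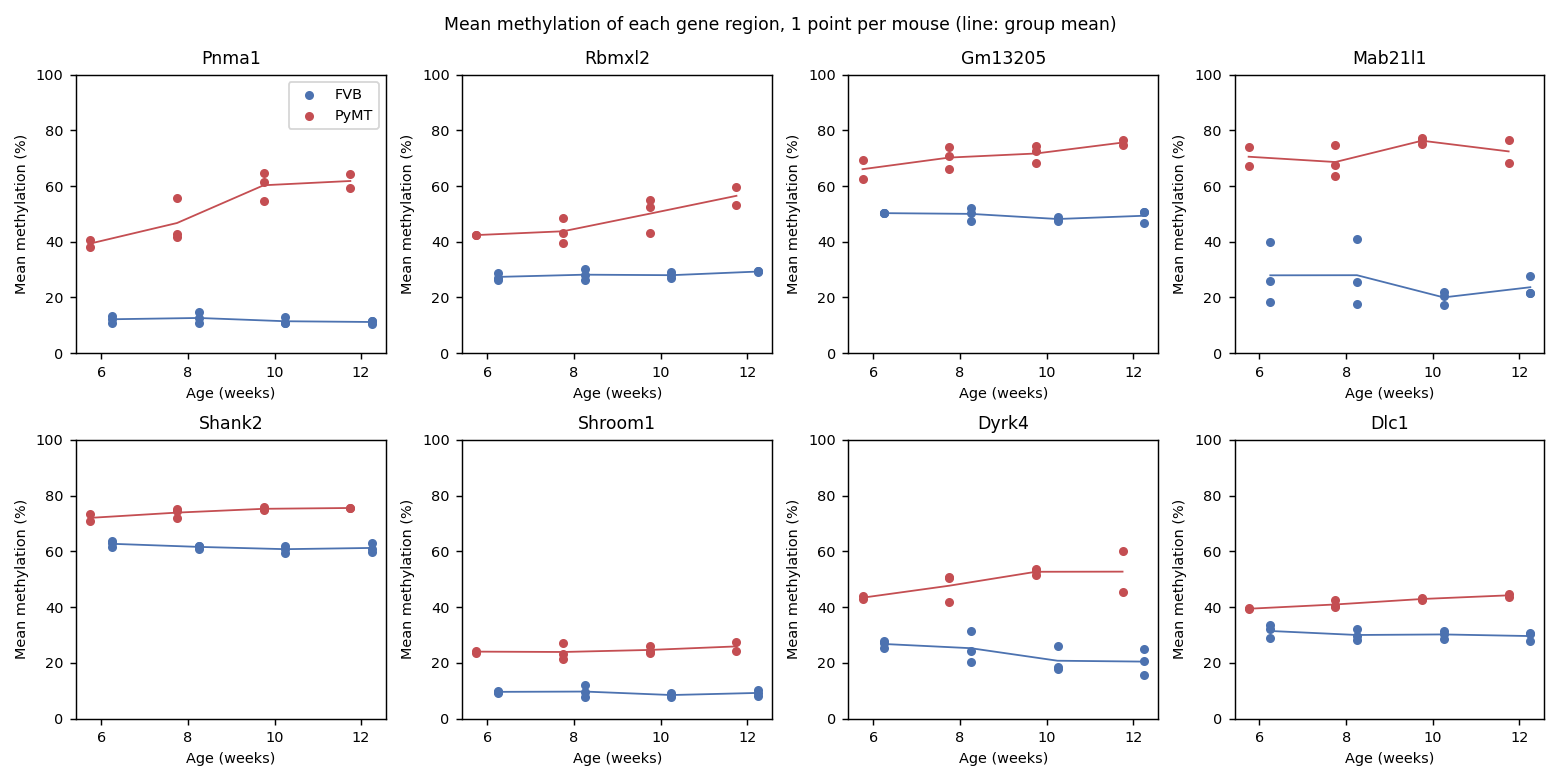
Mean methylation (%) of each gene region against age in weeks, 1 point per mouse, with lines through the group means. All 10 PyMT samples lie above all 12 FVB samples in each of the 8 genes, as they do in 4.72% of all genes. This separation follows from how the genes were chosen. The distance grows from 27.2 to 50.6 points in Pnma1.

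Position by position, weeks 10 and 12 were compared with weeks 6 and 8 within PyMT by the same logistic test. Of the 716 positions 129 were higher late and 0 lower, beside 1.37% and 1.07% of all positions, and in FVB 4 were higher and 15 lower, beside 0.645% and 0.264%. The values compared here also entered the choice of the genes, so these counts are a description. Rbmxl2 had 50 of the positions higher late in PyMT and Pnma1 43, so that most of the late increase fell in these 2 genes. Dlc1 had 10, Gm13205 9, Shank2 8, Mab21l1 5, Dyrk4 4 of its 7 and Shroom1 0. All 43 of Pnma1 lay in its block of gain, and 39 of those of Rbmxl2 in its longest stretch. The reads of one mouse are not independent mice: with limma on the percent of each mouse 0 of these positions were called, although 121 had an unadjusted p under 0.05 in the upward direction and 2 downward. Over all positions limma called 1 (8.77e-05%), with 26309 at an unadjusted p under 0.05 upward and 19791 downward.

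Sequence outside the gene regions, within 20 kb, did not share one direction. With limma over 22 samples and week as a factor, flanks were higher in PyMT around Shank2 by 7.38 ± 0.99 points (SE, limma adjusted p = 1.8e-06), around Mab21l1 by 3.46 ± 0.69 (limma adjusted p = 0.000182) and around Pnma1 by 2.33 ± 0.92 (limma adjusted p = 0.0318), each less than the gain inside the gene. They were lower around Dyrk4 by 26.3 ± 1.97 points (limma adjusted p = 8.52e-10) and around Dlc1 by 2.19 ± 0.73 (limma adjusted p = 0.0131). Most flanks were covered on 1 side or unevenly. For Dyrk4 the 8 downstream positions, the nearest 11008 bp outside the region, differed by -35.8 points and the 3 upstream by -1.01. All 9 flanking positions of Dlc1 were downstream, and those of Pnma1 and Shank2 were all upstream. Around Gm13205 the difference was -15.03 ± 0.91 points (limma adjusted p = 5.81e-11). Around Shroom1 the difference was -0.02 ± 0.25 points, with means of 9.68% in PyMT and 9.72% in FVB. Of all 19692 flanks tested, 16.9% were higher and 49.4% lower in PyMT. The 68 flanking positions of Gm13205 averaged 63.5% ± 1.98 (SD, n = 10) in PyMT and 78.5% ± 1.999 (n = 12) in FVB, and the 21 of them upstream of the gene 24.9% and 55.8%. The 11 of Dyrk4 averaged 63.3% ± 6.22 and 89.6% ± 2.55. Rbmxl2 had 0 covered positions in its flanks. The flank call of Pnma1 was lost without PyMT week 8 replicate 1 or 3, PyMT week 12 replicate 3, FVB week 8 replicate 1 or FVB week 12 replicate 3 (limma adjusted p from 0.0520 to 0.0857), and at 50 kb its flank was lower in PyMT, at -3.30 points. The flank of Shank2 was at -1.94 points with all RefSeq transcripts, and the call of Dlc1 was lost at 20 reads and with pooled reads (limma adjusted p = 0.0563 and 0.127).

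Relatives of the 8 genes were examined with the same fit. Of 24 paralogs listed by family, 23 were found in the annotation and 20 had enough positions. In PyMT 5 were higher, 4 lower and 11 not called, beside 18.5% higher and 35.1% lower of all genes, and the median difference was 0.09 points over the relatives and -0.09 over all genes. Mab21l2, the closest relative of Mab21l1, was the one with a gain of like size. It had 56.4% ± 11.2 in PyMT (SD, n = 10) and 20.6% ± 4.00 in FVB (n = 12), a difference of 35.7 ± 3.25 points (SE, limma adjusted p = 1.67e-08), with 25 of 34 positions higher at every stage and a PyMT slope of 4.50 ± 0.84 points per week (limma adjusted p = 0.0265). Pnma3 was higher by 15.6 ± 2.66 points at its 6 positions (limma adjusted p = 4.94e-05), and the other 3 that were higher, Pnma2, Dyrk1b and Dyrk2, differed by 0.48 to 2.03 points. Shank3, another synaptic scaffold of the Shank family, was lower by 9.56 ± 0.77 points (limma adjusted p = 3.18e-09), and Shroom3, Dyrk3 and Stard13 were lower by 2.03 to 2.45 points. The other Shank relative, Shank1, differed by -0.10 ± 0.20 points.

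The gene whose 4 stage differences were nearest to those of each member, by root mean square distance, was Mdk for both Pnma1 (4.66 points) and Mab21l1 (7.93 points). Mdk, a secreted growth factor, differed by 29.1, 41.3, 48.7 and 45.0 points by stage over its 16 positions. Iffo1 was nearest to Dyrk4 (2.12 points), Mir219a-2 to Gm13205 (1.45), 4933416M07Rik to Rbmxl2 (1.75), Zfp809 to Shroom1 (0.94), Dhdh to Dlc1 (0.92) and Mir5046 to Shank2 (0.40). These genes were found by the same differences that chose the 8 and are named as a description.

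A sample held 1314077 to 1435757 positions at a mean coverage of 60.2 to 79.2 reads, and the 8 regions had a mean coverage of 71.8 to 105 reads, lower in PyMT than in FVB in each of them, for example 78.3 against 93.6 reads at Pnma1. Promoters of cell type markers also differed between the genotypes. All 5 luminal markers (Krt8, Krt18, Epcam, Cdh1 and Elf5) were lower in PyMT, and their mean was 4.32% to 7.37% in PyMT and 12.4% to 18.6% in FVB. Of all 17 marker promoters tested 3 were higher and 11 lower by limma, beside 16.9% and 17.1% of all promoters. The 4 adipocyte promoters averaged 42.0% to 50.03% in PyMT and 50.9% to 58.8% in FVB (1 higher, 2 lower), and the 2 leukocyte promoters 24.5% to 37.9% and 34.4% to 38.4% (1 lower). The 3 endothelial promoters averaged 31.1% to 37.0% and 31.1% to 38.8% (1 higher, 2 lower), the 2 fibroblast promoters 3.11% to 7.86% and 2.65% to 7.20% (1 higher), and the basal promoter of Krt5 54.9% to 64.4% and 56.1% to 76.6% (lower). No marker promoter had a PyMT slope past the threshold of limma, and 4 had an unadjusted p under 0.05. The part of cell composition in the gains of the 8 genes was not tested.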

How the data were processed

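Enhanced reduced representation bisulfite sequencing (ERRBS) was done on mammary tissue of 10 PyMT and 12 FVB mice. Reads were aligned by the authors to mm10 using Bismark. The deposited values are the coverage (a raw count of reads) at every CpG cytosine with at least 10 reads, strands apart. Beside it they deposited the percent of methylated and of unmethylated reads, not normalized. Outlier samples had been removed by the authors after a look at coverage, methylation percent and principal components. PyMT weeks 6 and 12, the ends of the PyMT slope, have 2 samples each, where the other groups have 3. The effect of the removal on the slopes was not tested. Methylated reads were taken as coverage times percent, rounded.

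Group, week and replicate number came from the labels. The 8 genes, and all gene lists used, were chosen with earlier results of these data known. Gene models were the curated RefSeq transcripts of GRCm38.p6 (mm10). Region means of percent methylation were fitted with limma 3.58.1 in R 4.3.3 (empirical Bayes with a trend) and adjusted by the Benjamini-Hochberg method over all genes, with a threshold of 0.05. Positions were tested by a likelihood ratio test of a logistic model. Scripts were tested on simulated data. The rest was computed in Python 3.11.15 (pandas 2.3.3, SciPy 1.17.1 and NumPy 2.4.6), with plots by matplotlib 3.10.9.

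The genes named are the 8, their paralogs by family, genes overlapping their regions and, for each, the gene with the nearest stage differences among those with at least 5 positions. Beside Nbea and Casz1, Gm14372 overlaps 26 positions of Shank2, of which 2 were higher at every stage. Gm34621 overlaps 6 positions of Shank2 and Mideas 1 of Pnma1, of which 0 were higher at every stage. Rad51ap1 overlaps the Dyrk4 region at 0 covered positions. Pnma8a was matched through a synonym, and Pnma8b was not matched. Alternatives were 20 reads as minimum coverage, merged strands, a log2 ratio of reads with 1 read added to each, pooled reads, a replicate block, promoters alone, other flanks, a difference of 25 points, all RefSeq transcripts, other distances for joining positions, and leaving out each sample. Each sample was 1 mouse.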

Additional observations from a re-analysis of the deposited data

Results flagged for a closer look

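The change with week differed between the genotypes in 3 of the 8 genes by the interaction test over 22 samples (limma, Benjamini-Hochberg adjustment over all genes), beside 2.26% of all genes with a higher and 1.06% with a lower slope in PyMT. The interaction uses the stage differences that chose the genes, so these calls are a description. Over 29 alternatives the call was lost in 0 for Pnma1, in 24 for Rbmxl2 and in 9 for Dlc1. The slope of Pnma1 was 4.38 points per week higher in PyMT than in FVB, that of Rbmxl2 2.18 and that of Dlc1 1.09. In each the PyMT slope was upward, at 4.17, 2.46 and 0.83 points per week, and the FVB slope was -0.21, 0.28 and -0.26. Methylation of the luminal marker promoters also differed between the genotypes, and its part in these differences was not tested.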

How the results depend on the processing

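With 8 genes, 2 rising in PyMT is a small count, and it depended on single settings: it was 1 on the log2 read ratio scale, 1 with pooled reads, 1 by the exact permutation test, 0 with a replicate block and 0 for weeks 10 and 12 against weeks 6 and 8, and between 0 and 3 when 1 sample was left out. All genes with a rising slope numbered 426, and 126, 182, 231, 185 and 2 under these settings, and those with a falling slope 85, and 15, 28, 42, 19 and 0. Promoters alone left 16 falling. The difference of slopes was called for 3 genes, for 1 on the log2 read ratio scale, for 1 with pooled reads, and for 1 to 5 when 1 sample was left out. Leaving out 1 sample moved the rising genes between 135 and 433. Over all genes it was higher in PyMT for 423 and lower for 198, against 91 and 17 on the log2 read ratio scale and 204 and 60 with pooled reads, and lower for 43 in promoters alone, while without 1 sample it fell to as few as 273 higher and 93 lower. Without FVB week 8 replicate 2, 4 genes rose and 3 fell in FVB, against 0. Lower flanks numbered 9737, and 6303 within 10 kb. Of all genes 3463 were higher in PyMT, and 1949 with pooled reads, and 6559 lower, and 4075 on the log2 read ratio scale and 2813 in promoters alone. The FVB slope of Shroom1 was 0.0318 points per week in promoters alone. The flank calls were lower for 1 gene within 10 kb and for 5 within 50 kb, where Pnma1 was at -3.30 points, and Shank2 was at -1.94 points with all RefSeq transcripts, while Shroom1 lay between -0.13 and 0.13 points without 1 sample. Of the relatives, pooled reads called 2 higher and 2 lower, the log2 read ratio scale 2 lower, and promoters alone 1 lower, with Shank3 at 1.14 points. A difference of at least 25 points left 197 hyper-DMCs in hyperplasia, 153 at all stages, and 16 positions higher in late PyMT samples, and limma on positions left 0. With all RefSeq transcripts 1 position was lower late, and without 1 sample 0 to 2 were. The cause of these changes was not tested. Replicate numbers gave no sign of pairing the genotypes within a week. Same-numbered samples of a week had correlations of their deviations of -0.13 to 0.08 over 10 pairs, and 3 of 10 PyMT samples were nearest to their own number. With so few samples per group this check is weak, and it cannot show a replicate batch shared across weeks. With the replicate block the slope was called for 0 of the 8 genes (limma adjusted p = 0.104 for Pnma1 and 0.0729 for Dlc1), and the difference of slopes for 2, not for Dlc1 (limma adjusted p = 0.0567). Depth limits single positions more than region means.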
